A study of Mus musculus with 4 samples.

Results

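The adhesion G protein-coupled receptors (GPCRs) of the mouse trigeminal ganglion are described here. Members were the genes of the deposited expression table whose symbol is Celsr1, Celsr2 or Celsr3, or Adgr followed by a subfamily letter (a to g, l or v) and a number, which gave 30 of 56035 gene rows. The family was chosen by the level of 1 member, Adgra3, which was lower in both mutant libraries than in both control libraries (ratio of the means 0.453). The Adgra3 genotype difference is therefore given as a description, with no test. The other 29 members were taken by name. Trigeminal ganglia, the sensory ganglia of the face, came from male C57BL/6 mice 8 weeks old. One group carried the K823R change in Trpv1, lysine to arginine in the heat- and capsaicin-gated channel of nociceptors. Its labels call it both a knock-in and a transgenic line. Controls were wild-type (WT) littermates. Each group had 2 libraries. The sampling protocol speaks of 2 pairs of ganglia without saying how they were divided over libraries, so p-values cover only the spread among these libraries, and that spread may be technical.

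Adhesion GPCRs join a long extracellular region, built from adhesion modules, to a core of membrane-spanning helices that couples to G proteins. In many of them the receptor cuts itself just outside the membrane, at the GPCR proteolysis site (GPS) inside a fold called the GAIN domain, and the exposed stretch behind the cut can act as a tethered agonist. In nervous tissue the family is known for synapse formation (latrophilins and the Adgrb group), neuronal polarity and axon guidance (Celsr group) and peripheral myelination (Adgrg6).

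The GPS is a feature shared by most of the family, and its codons are shown for Adgra3 beside some of its relatives. The deposited domain annotation lists the membrane-spanning core for 30 of 30 members and a GPS for 27. The coding sequence of the longest coding transcript (GENCODE M21, GRCm38) was searched for the GPS by its pattern of tryptophan and cysteine codons and the hydrophobic stretch after the cut. A match was found in 29 members, and 20 of these had codons for histidine, any residue, and threonine or serine at the cut, here called canonical. The other 9, Adgra3 among them, had other codons. Windows of 45 bases are shown for Adgra3, its paralog Adgra2 and 4 abundant members chosen from those with canonical codons, with the 3 codons at the cut in capitals.
Adgra3: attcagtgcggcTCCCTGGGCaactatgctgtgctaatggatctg
Adgra2: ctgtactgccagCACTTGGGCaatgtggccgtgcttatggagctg
Adgrg1: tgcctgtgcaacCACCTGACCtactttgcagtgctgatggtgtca
Adgrl1: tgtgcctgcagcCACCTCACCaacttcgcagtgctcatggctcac
Adgrg6: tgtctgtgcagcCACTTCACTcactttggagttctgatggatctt
Celsr2: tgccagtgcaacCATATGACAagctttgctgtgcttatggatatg
Adgra3 and Adgra2 both end the triplet with a glycine codon, and Adgra3 also has a serine codon in first position. Celsr3, not shown, likewise ends with a glycine codon and lacks the histidine codon. The Adgra3 window lies on the minus strand within chr5:49972070-49978981. The others lie within chr8:27117477-27118729 (Adgra2), chr8:95007630-95008376 (Adgrg1), chr8:83933994-83934038 (Adgrl1), chr10:14428212-14431644 (Adgrg6, minus strand) and chr3:108396731-108396775 (Celsr2, minus strand). The windows of Adgra3, Adgra2, Adgrg1 and Adgrg6 are split by an intron. Adgra1, the third member of that subfamily, had no match, and its domain annotation lists the membrane-spanning core alone.

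Values are TPM, a transcript abundance scaled by gene length and by the library total, so levels can be compared between genes but read depth is unknown. Markers of sensory neurons were present in all libraries (14 of 14 tested, summed level 15343 to 17659 TPM), and the WT libraries correlated across genes at Pearson's r = 0.969 (K823R, 0.968; genes are not independent replicates). WT replicate 1 was the lowest library for several glial and stromal lists. The 14 oligodendrocyte and astrocyte markers summed to 177 and 389 TPM in WT against 451 and 499.8 TPM in K823R. Aldoc alone, nearly level, held 156.2 and 155.4 TPM of the WT sums and 163.6 and 163.8 TPM of the K823R sums. The rest of the list was therefore far lower in WT replicate 1 than the sums show. Mog, Olig2 and Opalin were listed at 0 in that library. Myelinating Schwann cell markers summed to 11964 and 14961 TPM in WT against 14858 and 17721 TPM in K823R. The fibroblast and meningeal list summed to 1473 and 2993 TPM in WT against 4395 and 2541 TPM in K823R. Ptgds alone held 109 and 577 TPM of the WT sums and 2374 and 472 TPM of the K823R sums. The high sum of K823R replicate 1 thus rested on that gene. Pituitary markers summed to 2.57 and 4.98 TPM in WT against 23.8 and 20.1 TPM in K823R. In bulk tissue, fewer cells of a type and less RNA per cell cannot be told apart. The part of these differences in the results was not tested. Values without WT replicate 1, given below for some genes, do not test it. WT replicate 2 was also below both K823R libraries for the oligodendrocyte and astrocyte list and for the pituitary list.

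**Figure D1:**
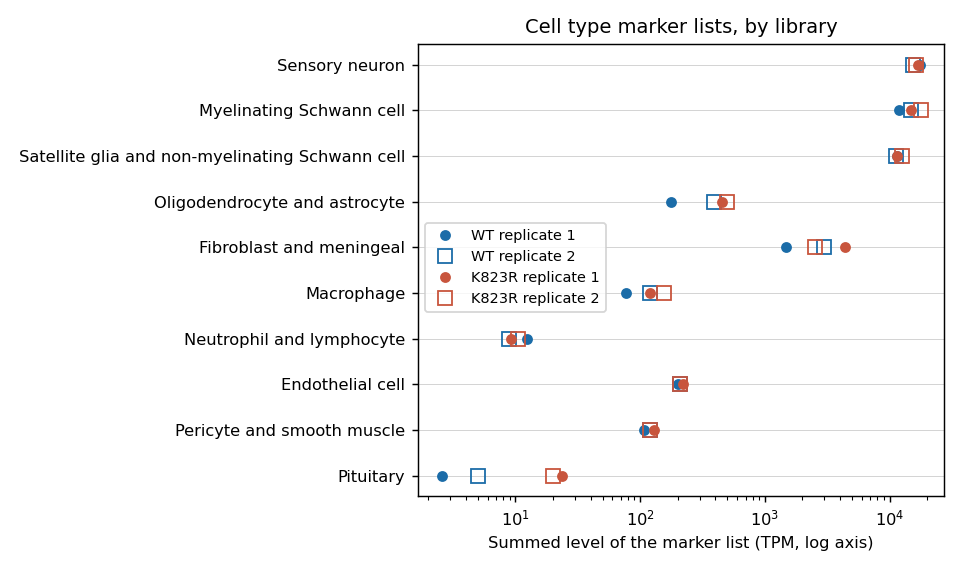
Summed level of each cell type marker list in TPM (log axis), 1 point per library. WT replicate 1 lies lowest for the oligodendrocyte and astrocyte list (177 TPM against 389 to 499.8 TPM), of which Aldoc alone holds 155.4 to 163.8 TPM. Both K823R libraries lie above both WT libraries for the pituitary list.

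Adgra3 (ENSMUSG00000029090), an orphan relative of Adgra2 that has been linked to Wnt and planar polarity signalling, was at 27.1 and 35.9 TPM in WT against 14.2 and 14.3 TPM in K823R. Both K823R libraries were below both WT libraries, and the K823R pair was nearly equal while the WT pair differed by more. WT averaged 31.5 ± 6.24 TPM and the mutant 14.3 ± 0.0778 TPM (SD, n = 2 each), a ratio of 0.453. All log2 differences here are K823R minus WT of log2(TPM + 1), a scale that compresses changes of scarce genes. For Adgra3 this came to -1.08. Where a log2 difference is printed for another gene, its standard error (SE, limma) is given with it. Both K823R libraries were below both WT libraries for 14.6% of all 15390 genes tested. A difference at or below that of Adgra3 was found for 158 of them (1.03%), Adgra3 included. The Adgra3 difference was -1.27 without WT replicate 1, the library lowest in oligodendrocyte and astrocyte markers, and -0.88 without WT replicate 2. As a share of the family's summed TPM, Adgra3 made up 8.81% and 11.8% in WT and 4.56% and 4.75% in K823R. It ranked 4th and 2nd among the members in the WT libraries and 9th and 7th in the K823R libraries.

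Adgra3 occupies positions 49959956 to 50059006 of chromosome 5 in GRCm38, minus strand, and overlaps no other annotated gene. Its longest coding transcript shares no stretch of at least 150 bases at 95% identity or more with a transcript of any other gene. Of 7 annotated Adgra3 transcripts 1 is protein-coding, and the table gives a single value for the gene, so coding and other forms cannot be told apart. The nearest tested gene on one side, Kcnip4, which encodes an auxiliary protein of A-type potassium channels, is 435 kb away and stood at 107 and 86.04 TPM in WT against 89.8 and 88.9 TPM in K823R. Its groups overlapped (log2 difference -0.10, SE 0.12, limma adjusted p = 0.935). The direction turned without WT replicate 1 (0.053), and the Kcnip4 difference was -0.26 without WT replicate 2. On the other side the nearest tested gene was Ppargc1a, a coactivator of mitochondrial biogenesis, which is 1395 kb away. Ppargc1a was at 7.76 and 7.83 TPM in WT against 7.58 and 7.49 TPM in K823R (log2 difference -0.043, SE 0.11, limma adjusted p = 0.974, and -0.076 after quantile normalization).

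The fit over all genes included the 20 members that averaged 1 TPM or more, and its test is used for the 19 of them other than Adgra3. The other 10 were under that level. The summed level of the 30 members was 307 and 303 TPM in WT against 311 and 302 TPM in K823R. Without Adgra3 it was 280.3 and 267 TPM in WT against 297 and 287 TPM in K823R, with no overlap of the groups. Taken singly, 19.4% of all genes tested had both K823R libraries above both WT libraries. A link between the level of the other members and that of Adgra3 was not tested. The 5 most abundant members (Adgrg1, Adgrl1, Adgrb1, Adgra3 and Adgrl2) held 57.8% to 61.1% of the sum in each library. Levels ran from a mean of 71.9 TPM for Adgrg1 down to 4 members listed at 0 in every library.

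**Figure D2:**
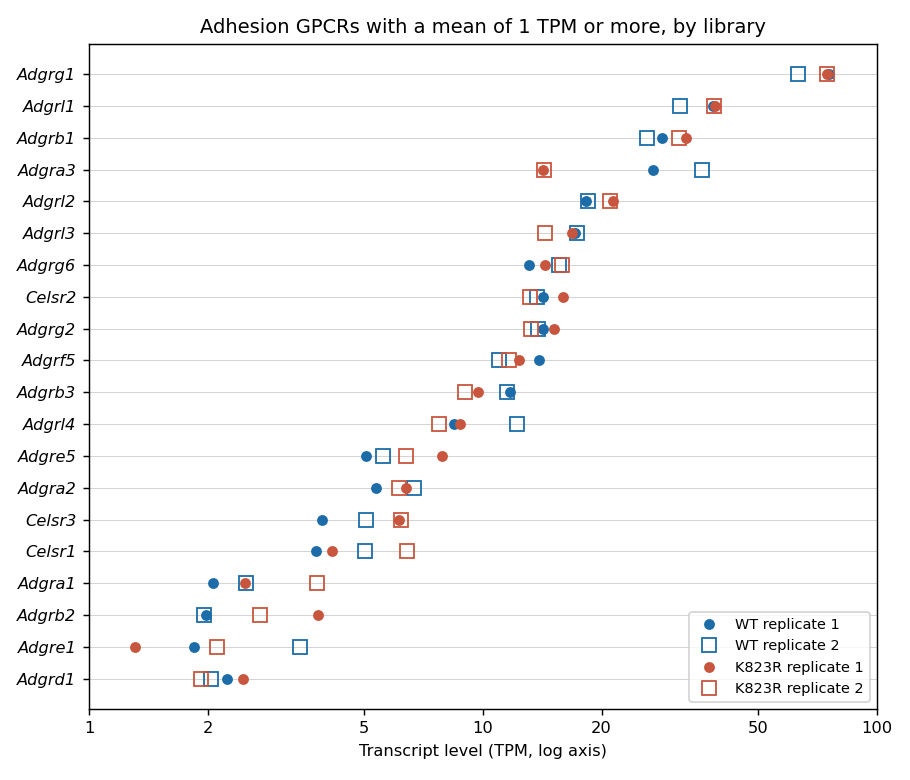
Level in TPM (log axis) of the 20 members that averaged 1 TPM or more, in order of their mean, with 1 point per library. Adgra3 has both K823R libraries at 14.2 and 14.3 TPM, left of both WT libraries at 27.1 and 35.9 TPM.

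**Figure D3:**
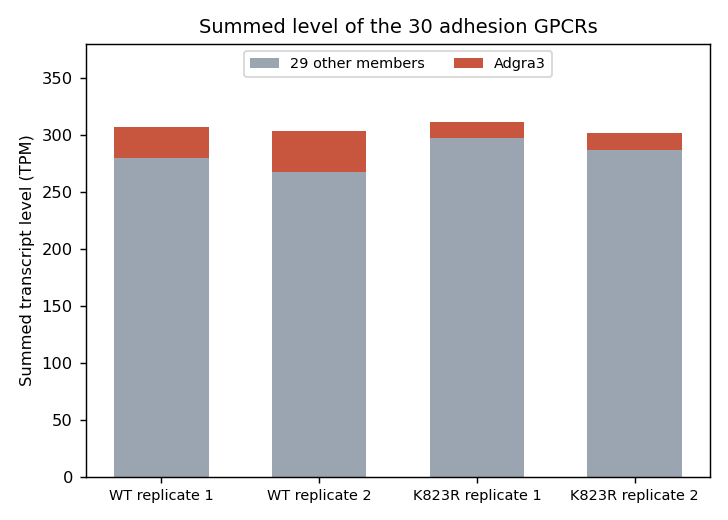
Summed TPM of the 30 members in each library, with the part due to Adgra3 in colour. The totals lie between 302 and 311 TPM in all 4 libraries, while the part due to Adgra3 is smaller in both K823R libraries.

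Across the genes tested, 0 of the 19 members other than Adgra3 passed limma at an adjusted p below 0.05, against 1 of 15390 genes (0.00650%), and 1 member had an unadjusted p under 0.05, against 4.76% of all genes. That member was Adgrb3. The share of 1 in 15390 genes is also the background for the counts passing in each list of ligands, partners and effectors below. With so few genes passing, a count of 0 is no sign that a list was unchanged. Both K823R libraries were above both WT libraries for 6 of the 19 (Adgrb1, Adgrb2, Adgre5, Adgrl1, Adgrl2 and Celsr3), a pattern shown by 19.4% of all genes. They were below them for 2 (Adgrb3 and Adgrl3), against 14.6% of all genes. The estimate was above 0 for 14 of the 19, against 57.4% of all genes, and the median log2 difference was 0.072, against 0.026 for all genes. That median of the 19 moved to 0.032 when WT replicate 2 was left out and to 0.039 after quantile normalization, and to 0.110 and 0.105 when K823R replicates 1 and 2, in turn, were left out. With Adgra3 included the median was 0.064, and it moved to 0.021 when WT replicate 2 was left out, to 0.097 when K823R replicate 2 was left out and to 0.033 after quantile normalization. The 19 estimates ran from -0.41 to 0.51 with SEs of 0.084 to 0.31.

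**Figure D4:**
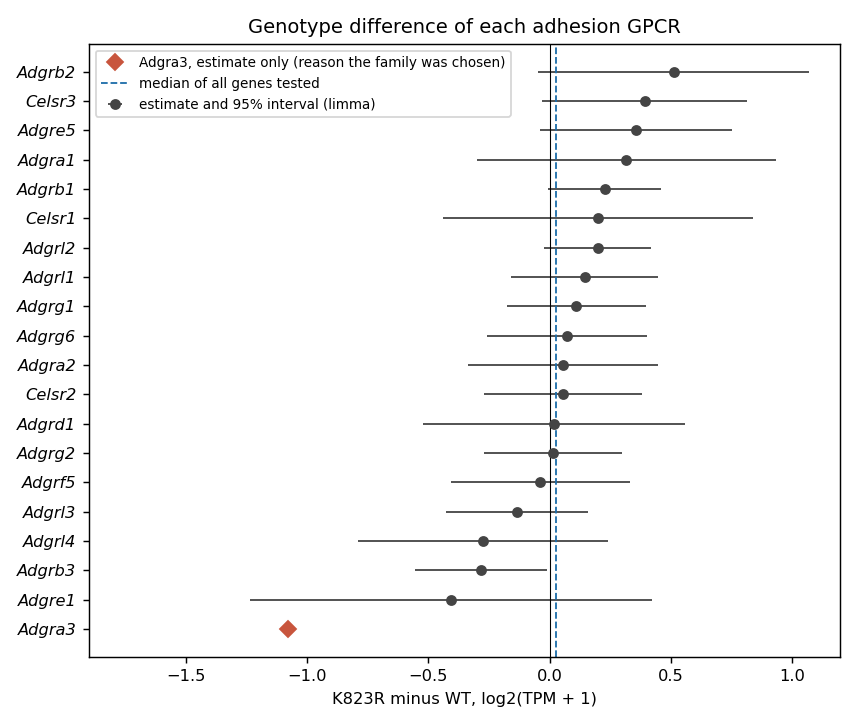
Log2 difference (K823R minus WT, in log2(TPM + 1) units) of the 20 members in the fit, with 95% intervals from limma for all but Adgra3. The 19 other estimates lie between -0.41 and 0.51, and Adgra3 at -1.08.

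Both paralogs of Adgra3 had overlapping groups. Adgra2, a coreceptor for Wnt7 in blood vessels of the brain, was at 5.34 and 6.67 TPM in WT against 6.37 and 6.13 TPM in K823R. Adgra1 was at 2.07 and 2.51 TPM in WT against 2.49 and 3.79 TPM in K823R (log2 difference 0.32, SE 0.24, limma adjusted p = 0.918). Exons of Adgra2 overlap those of Brf2 on the other strand, and whether the counting used strand is not stated in the labels. The Adgra1 difference was 0.088 without K823R replicate 2 and 0.55 without K823R replicate 1. Reck, which presents Wnt7 to Adgra2, was at 5.75 and 4.41 TPM in WT against 5.09 and 4.22 TPM in K823R, and Wnt7a at 2.03 and 2.50 TPM and at 2.07 and 1.96 TPM.

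The latrophilins Adgrl1, Adgrl2 and Adgrl3, synaptic receptors for teneurins and FLRT proteins and, for Adgrl1, for the spider toxin that named them, were all well above 10 TPM. Adgrl1 was at 38.4 and 31.7 TPM in WT against 38.8 and 38.6 TPM in K823R, so that WT replicate 2 stood lowest and WT replicate 1 close below both K823R libraries. Adgrl2 was at 18.2 and 18.4 TPM in WT against 21.4 and 21.05 TPM in K823R, with the groups apart and little spread within either. The log2 difference was 0.20 (SE 0.084, limma adjusted p = 0.918), and 0.19 to 0.21 with any single library left out. Adgrl3 was at 17.1 and 17.3 TPM in WT against 16.8 and 14.4 TPM in K823R, lower in both mutant libraries by a small margin. Of 15 latrophilin ligands and partners 14 were tested and 0 passed in either direction. Of the 14, 8 were higher and 6 lower, where 57.4% of all genes were higher. Their median log2 difference was 0.10, against 0.026 for all genes. Tenm4, a teneurin, was at 3.04 and 2.99 TPM in WT against 2.16 and 2.47 TPM in K823R (log2 difference -0.28, SE 0.18, limma adjusted p = 0.918). The netrin receptor Unc5b was at 0.93 and 1.56 TPM in WT against 2.14 and 1.74 TPM in K823R (log2 difference 0.40, SE 0.26, limma adjusted p = 0.918). Leaving out WT replicate 1 gave 0.20 for Unc5b and leaving out WT replicate 2 gave 0.60, while adding 0.1 TPM in place of 1 before the log gave 0.63. Tenm3 was the most abundant teneurin, at 14.2 TPM in each WT library and at 13.03 and 12.7 TPM in K823R.

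The groups overlapped for none of the 3 Adgrb receptors, once named brain-specific angiogenesis inhibitors, and the 3 did not share a direction. Of all genes tested, 19.4% lay above in both K823R libraries and 14.6% below. Adgrb1, a receptor for phosphatidylserine on dying cells, was at 28.5 and 26.2 TPM in WT against 32.8 and 31.5 TPM in K823R. The log2 difference was 0.23, with SE 0.089 and a 95% interval of -0.0066 to 0.46. Adgrb2 was scarce in WT, at 1.98 and 1.96 TPM, and stood at 3.82 and 2.72 TPM in K823R (log2 difference 0.51, SE 0.21, 95% interval -0.047 to 1.07). Adgrb3, a synaptic receptor for C1q-like proteins, was at 11.7 and 11.5 TPM in WT against 9.71 and 9.0 TPM in K823R (log2 difference -0.28, SE 0.10, 95% interval -0.56 to -0.012). Adjusted p was 0.918 for each of the 3 (limma). The Adgrb2 difference was 0.32 without K823R replicate 1. Among 12 tested ligands and effectors of this group 0 passed, 6 were higher and 6 lower, where 57.4% of all genes were higher. Their median log2 difference was 0.0068, against 0.026 for all genes. The Nogo receptor Rtn4r, a ligand of Adgrb receptors, was at 7.03 and 6.82 TPM in WT against 9.28 and 8.20 TPM in K823R (log2 difference 0.30, SE 0.12, limma adjusted p = 0.918). The C1q-like ligand C1ql3 was at 2.49 and 2.15 TPM in WT against 1.48 and 1.82 TPM in K823R (log2 difference -0.33, SE 0.21, limma adjusted p = 0.918).

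Of the Celsr receptors, giant cadherins of planar cell polarity and axon guidance, Celsr2 was the most abundant, at 14.2 and 13.7 TPM in WT against 15.9 and 13.2 TPM in K823R. Celsr3 was at 3.90 and 5.06 TPM in WT against 6.12 and 6.18 TPM in K823R, with the groups apart (log2 difference 0.39, SE 0.16, limma adjusted p = 0.918). Without WT replicate 1 the Celsr3 difference was 0.24. Celsr1 was at 3.78 and 5.02 TPM in WT against 4.13 and 6.40 TPM in K823R, which overlap. Of the 24 Wnt and planar polarity partners 22 were tested and 0 passed. Of the 22, 16 were higher and 6 lower, where 57.4% of all genes were higher. Their median log2 difference was 0.047, against 0.026 for all genes. The paired polarity proteins Vangl1 and Vangl2 had the smallest p of the list. Vangl1 was at 2.67 and 2.52 TPM in WT against 4.33 and 5.72 TPM in K823R (log2 difference 0.74, SE 0.19, limma adjusted p = 0.918). Vangl2 was at 0.93 and 1.12 TPM in WT against 1.92 and 2.20 TPM in K823R (log2 difference 0.60, SE 0.23, limma adjusted p = 0.918). For both genes the K823R libraries lay above the WT libraries, and the difference was 0.57 to 0.90 for Vangl1 and 0.53 to 0.66 for Vangl2 with any single library left out. With a pseudocount of 0.1 TPM the Vangl2 difference was 0.94. Of 80 tested ligand, partner and effector genes only Vangl1 had an unadjusted p under 0.05 (limma), a level reached by 4.76% of all genes. Prickle4 lay lowest in the list, at 4.41 and 0.98 TPM in WT against 0.73 and 0.35 TPM in K823R, with a wide spread between the WT libraries. Dlg1, a scaffold that binds the tail of Adgra2 and Adgra3, was at 8.81 and 10.9 TPM in WT against 10.8 and 12.1 TPM in K823R.

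**Figure D5:**
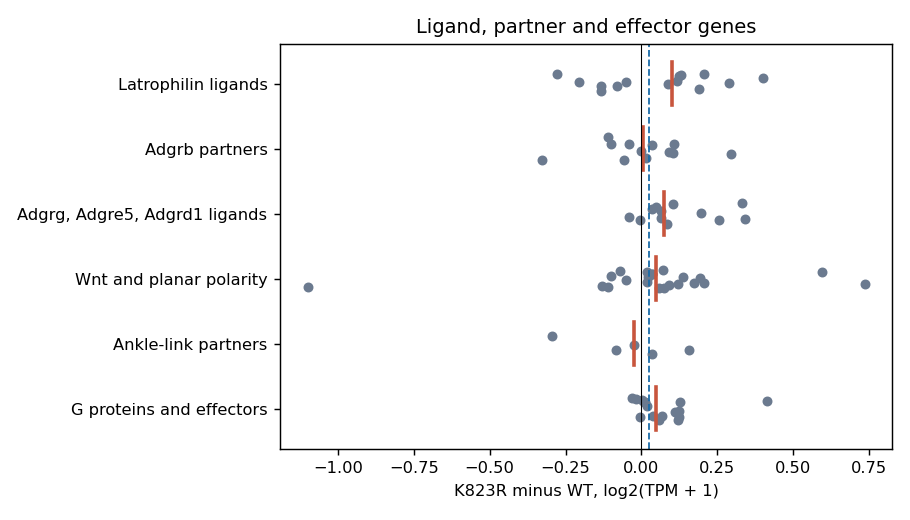
Log2 difference (K823R minus WT) of each tested gene in the 6 lists of ligands, partners and effectors, 1 point per gene, with the list median as a bar and the median of all genes tested as a dashed line. List medians lie between -0.024 and 0.10; the 2 rightmost points of the Wnt and planar polarity list are Vangl1 and Vangl2, and its leftmost is Prickle4.

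The groups overlapped for every Adgrg receptor tested and for Adgrd1. Adgrg1, a collagen III receptor of developing glia and neurons, was the most abundant member, at 75.6 and 62.95 TPM in WT against 74.6 and 74.5 TPM in K823R. Adgrg6, the receptor that Schwann cells need to myelinate, was at 13.1 and 15.6 TPM in WT against 14.4 and 15.8 TPM in K823R. The lowest Adgrg6 library was WT replicate 1, which also had the lowest Schwann cell marker sum. A link between them was not tested. An antisense gene, Gm46212, shares 442 bases of Adgrg6 exons and was at 0.845 TPM on average. Adgrg2, best known from the male reproductive duct, was at 14.2 and 13.8 TPM in WT against 15.1 and 13.2 TPM in K823R. Adgrd1 was at 2.24 and 2.04 TPM in WT against 2.46 and 1.92 TPM in K823R. All 12 genes for ligands of Adgrg1, Adgrg6, Adgre5 and Adgrd1 were tested and 0 passed. Of the 12, 10 were higher and 2 lower, where 57.4% of all genes were higher. Their median log2 difference was 0.074, against 0.026 for all genes. The collagen IV chains, which bind Adgrg6, had the smallest p of the list. Col4a1 was at 32.3 and 36.7 TPM in WT against 38.4 and 44.4 TPM in K823R, and Col4a2 was at 21.4 and 21.9 TPM and at 24.3 and 25.6 TPM (log2 differences 0.26 and 0.20, SEs 0.12 and 0.085, limma adjusted p = 0.918 for each). The fibroblast and meningeal marker sum given above was lowest in WT replicate 1. It was highest in K823R replicate 1, whereas both collagen IV chains were highest in K823R replicate 2. A link between that sum and the collagen IV values was not tested. With WT replicate 1 left out the differences were 0.17 for Col4a1 and 0.18 for Col4a2. With K823R replicate 2 left out the Col4a1 difference was 0.16. Prnp, the prion protein and an Adgrg6 ligand, was at 489.8 and 475 TPM in WT against 485 and 525 TPM in K823R.

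Receptors known from vessels and myeloid cells had no common direction. Adgrl4, an endothelial receptor, was at 8.42 and 12.2 TPM in WT against 8.76 and 7.72 TPM in K823R (log2 difference -0.27, SE 0.20, limma adjusted p = 0.918). With WT replicate 2 left out that estimate was -0.030, and with WT replicate 1 left out it was -0.52. Adgrf5, found on endothelium and lung epithelium, was at 13.9 and 10.98 TPM in WT against 12.3 and 11.7 TPM in K823R. Endothelial markers summed to 201 and 207 TPM in WT against 222 and 209 TPM in K823R. Adgre1, the F4/80 antigen of mouse macrophages, was at 1.85 and 3.43 TPM in WT against 1.31 and 2.11 TPM in K823R, the groups overlapping. The 12 macrophage markers summed to 77.6 and 120.1 TPM in WT against 119.9 and 154 TPM in K823R. Estimates were above 0 for 10 of the 12, and for 57.4% of all genes. Adgre5 (CD97), a leukocyte receptor for Cd55, was at 5.05 and 5.59 TPM in WT against 7.85 and 6.39 TPM in K823R (log2 difference 0.36, SE 0.15, limma adjusted p = 0.918), and 0.23 without K823R replicate 1. Its transcript shares 235 bases with Ddx39 on the opposite strand, at a mean of 7.02 TPM, so reads there cannot be told apart without strand.

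The remaining 10 members averaged less than 1 TPM. Adgrf1, Adgrf3, Adgrg4 and Adgrg7 were listed at 0 in every library. Such a 0 can stand for no assigned reads or for a failed estimate, which cannot be told apart here. Adgrf2, Adgrf4, Adgre4, Adgrg3, Adgrg5 and Adgrv1 had means of 0.030 to 0.39 TPM. K823R replicate 1 had the highest value for Adgrv1 (0.89 TPM, against 0.14 to 0.39 TPM elsewhere) and for Adgrg3 (0.90 TPM, against 0.16 to 0.23 TPM). Adgrv1 forms the ankle links of hair cells. Of its listed partners 5 were tested and 0 passed, against 1 of all 15390 genes. Of the 5, 2 were higher and 3 lower, where 57.4% of all genes were higher. Their median log2 difference was -0.024, against 0.026 for all genes. Whrn, a scaffold of that complex, was at 6.93 and 6.02 TPM in WT against 4.90 and 5.27 TPM in K823R (log2 difference -0.29, SE 0.14, limma adjusted p = 0.918), and Cib2 was at 26.2 and 25.4 TPM and at 24.4 and 24.2 TPM (log2 difference -0.085, SE 0.081, limma adjusted p = 0.932).

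The genes for G proteins and effectors through which these receptors signal included several abundant ones. All 16 were tested, 0 passed, 13 were higher and 3 lower, where 57.4% of all genes were higher. Their median log2 difference was 0.049, against 0.026 for all genes. Gnai2, an inhibitory subunit, was at 206 and 199.9 TPM in WT against 218 and 226 TPM in K823R (log2 difference 0.13, SE 0.066, limma adjusted p = 0.918). Rhoa was at 195 and 202 TPM in WT against 220.1 and 213 TPM in K823R (log2 difference 0.12, SE 0.067, limma adjusted p = 0.918). Gnas, the stimulatory subunit used by Adgrg6, was at 2580 and 2310 TPM in WT against 2608 and 2409 TPM in K823R.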

How the data were processed

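Messenger RNA of 2 WT and 2 K823R trigeminal ganglion libraries was sequenced as paired reads, and groups were taken from sample titles. The authors deposited TPM per gene, 1 column per library. Per the submitters' processing notes, fastp 0.19.5, HISAT2, RSEM, edgeR and the build GRCm38.p6 were named, without roles; the labels state neither annotation release nor strandedness. TPM keeps no depth, so no counting interval is given. The 15390 genes averaging 1 TPM or more were kept. limma 3.58.1 in R 4.3.3, with a variance trend, was fitted to log2(TPM + 1) of all of them, two-sided, with Benjamini-Hochberg adjustment over all and a threshold of 0.05. The scripts were tested on simulated data with seeded changes larger than any log2 difference printed here. That test therefore does not show whether changes of the printed sizes would be found. The 4 libraries left 2 residual degrees of freedom and a prior of 2.67. Log2 differences are printed for Adgra3, the 8 other members with the smallest p, the 2 such genes of each partner list and the nearest tested gene on each side of Adgra3; other genes named were added after their values were seen, with levels only. Some list genes and sequences are not reported here. Members and lists were chosen with earlier results of these data known. Transcripts came from GENCODE M21, shared stretches from BLAST 2.17.0, figures from matplotlib 3.10.9 and tables from pandas 2.3.3. Alternatives tried were a pseudocount of 0.1 TPM, no filter, a filter at 10 TPM, 2 other scalings, a replicate block and leaving out each library.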

Additional observations from a re-analysis of the deposited data

How the results depend on the processing

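Under the 10 alternatives run, 0 of the adhesion GPCRs tested (Adgra3 was given no test) and 0 ligand, partner or effector genes passed (limma). The smallest adjusted p was 0.656 for these receptors, without WT replicate 1, and 0.591 for the ligand, partner and effector genes, without WT replicate 2. Of the 19 members other than Adgra3, 1 had an unadjusted p under 0.05 (limma), against 4.76% of all genes. That count was 2 with no filter (of 25 members), 2 with median-of-ratios scaling and 2 after quantile normalization. The shares of all genes in those fits are not given, so these counts have no background beside them. Without single libraries the count moved both up and down. Those counts are not given, because 1 group then had 1 sample. The count of all genes that passed was 1, and became 0 with no filter, 2 with a filter at a mean of 10 TPM, 0 with the replicate block and 0 to 0 without single libraries. The median log2 difference of the 20 members was 0.064, with 0.033 after quantile normalization and 0.021 to 0.097 without single libraries. Adgra3 ranged from -1.27 to -0.88 without single libraries and was -1.12 with a pseudocount of 0.1 TPM. Most of the genes given a log2 difference were named for a small p in these same data. Where the groups of a gene do not overlap, leaving out a single library cannot turn its direction. A count of kept directions was thus largely fixed in advance and is no measure of robustness. Of 23 genes given a log2 difference, 22 kept their direction in all alternatives run for them. The exception was Kcnip4, which was 0.053 without WT replicate 1, in a range of -0.26 to 0.053 without single libraries. The cause was not tested. Replicate numbers do not pair the libraries by any label, and deviations of same-numbered libraries correlated at 0.05 across genes, so the block result (0 genes, 0 members) rests on a shared number only. With each left-out library an arm had 1 sample, assumed to vary like the other group. Scalings moved the median of all genes by -0.020 (median-of-ratios) and -0.029 (quantile) on the log2 scale. TPM gives no depth, so limits at low levels cannot be stated.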
